A study of Homo sapiens with 24 samples.

Results

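Clone 39 is a single clone of T47D cells, a line from a human luminal breast tumour, edited so that its own *TRPS1* gene encodes a protein fused to a degron, a tag that lets a small molecule trigger its destruction. Its 8 PRO-seq libraries, chosen here by clone and treatment label, are 4 replicates treated with DMSO and 4 treated with 100 nM dTAG-13 for 90 minutes, of 24 libraries in the series. All 60605 genes in the deposited count table were considered, and 22326 passed the filter on low counts. The DMSO and dTAG-13 dishes of a replicate number were collected together and the 4 replicate numbers at different times of 1 day, so each number forms a pair. The other 16 libraries come from Clones 28 and 35, made and treated in the same way. Every clone, in both treatments, carries the tag and makes only tagged TRPS1 protein, and some of its *TRPS1* copies are knocked out. The replicates of a group are dishes of a single clone. The gene tests estimated their spread from all 24 libraries, so it is pooled over Clones 28, 35 and 39. Their p-values measure spread between dishes within clones and not between independently made clones.

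TRPS1 carries a GATA-type zinc finger and binds GATA sites in DNA, where, unlike most proteins with this finger, it usually silences genes with the help of corepressor proteins. Luminal breast cancer cells depend on estrogen receptor alpha (ER, encoded by *ESR1*), which shares many regulatory elements with GATA factors. dTAG-13 bridges the FKBP-derived tag to the cereblon E3 ubiquitin ligase, and the tagged protein is then degraded by the proteasome. PRO-seq maps engaged RNA polymerase through the 3' ends of nascent RNA, so counts in a gene measure ongoing transcription and not mature RNA or protein. In bulk libraries, fewer transcribing cells and less transcription per cell cannot be told apart.

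With dTAG-13, transcription of 16 genes changed in Clone 39 (12 rose and 4 fell), with rises of 0.20 to 0.40 on the log2 scale and falls between -0.25 and -0.37. The genes that rose included the lipid synthesis genes *SCD* and *HMGCS1*, the kinase gene *PLK2* and the secreted luminal protein gene *PIP*. Those that fell were *BCOR*, *KCNK5*, *BACE2* and *KDM7A*. The test was edgeR's quasi-likelihood test with a term for each pair and a threshold of 0.1 on the Benjamini-Hochberg adjusted p-value. These 16 genes were 0.0717% of the genes tested, with 0.0537% higher and 0.0179% lower. At an unadjusted p under 0.05 there were 1284 genes, of which 657 were higher and 627 lower.

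The list of 16 genes depended on the pairs and on the tool. Without the pair terms edgeR called 0 genes (754 at an unadjusted p under 0.05), and DESeq2 with the same pair terms also called 0 (251 at an unadjusted p under 0.05). Leaving out the pair of replicate 1, 2, 3 or 4 left 15, 2, 4 or 9 calls, and 10, 2, 2 or 7 of these were among the 16. *TM4SF18-AS1* was called in each of those 4 fits.

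The promoters of 4 of these genes are shown because *HMGCS1* and *SCD* are the called lipid genes, *PLK2* had the smallest p-value of the protein-coding genes that rose, and *BCOR* that of the genes that fell. Each is the 250 bases before the RefSeq gene start (GRCh38.p14), 5' to 3' on the gene's strand. Capitals mark a GATA motif (AGATAA or AGATAG or TGATAA or TGATAG), an ER half-site (AGGTCA) or a sterol element (TCACNCCAC) on either strand.
HMGCS1, chr5:43313413-43313662, minus strand: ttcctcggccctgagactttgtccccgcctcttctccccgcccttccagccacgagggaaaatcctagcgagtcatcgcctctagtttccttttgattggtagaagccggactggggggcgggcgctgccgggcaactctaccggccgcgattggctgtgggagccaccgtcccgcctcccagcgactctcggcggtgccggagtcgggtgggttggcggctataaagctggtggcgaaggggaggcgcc
SCD, chr10:100346983-100347232, plus strand: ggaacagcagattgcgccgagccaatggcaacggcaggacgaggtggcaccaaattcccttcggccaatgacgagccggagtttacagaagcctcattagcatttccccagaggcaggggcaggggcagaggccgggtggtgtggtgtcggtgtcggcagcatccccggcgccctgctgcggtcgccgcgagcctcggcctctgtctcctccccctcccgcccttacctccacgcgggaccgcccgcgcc
PLK2, chr5:58460087-58460336, minus strand: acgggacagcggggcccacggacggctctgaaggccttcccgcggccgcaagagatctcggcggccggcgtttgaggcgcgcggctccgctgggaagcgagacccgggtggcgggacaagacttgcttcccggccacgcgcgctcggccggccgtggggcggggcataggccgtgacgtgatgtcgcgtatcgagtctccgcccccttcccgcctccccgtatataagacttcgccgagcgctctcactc
BCOR, chrX:40177278-40177527, minus strand: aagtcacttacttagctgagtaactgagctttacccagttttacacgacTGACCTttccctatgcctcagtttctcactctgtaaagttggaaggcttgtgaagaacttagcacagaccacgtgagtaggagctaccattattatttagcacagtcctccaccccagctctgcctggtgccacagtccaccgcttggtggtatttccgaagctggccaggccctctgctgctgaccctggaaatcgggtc

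The *BCOR* window held 1 ER half-site, on the strand opposite to the gene, and the windows of *HMGCS1*, *SCD* and *PLK2* held none of the searched letters. RefSeq promoters were matched for 10 of the 12 genes that rose and 3 of the 4 that fell. A GATA motif was found in 0 of these 13 windows, against 22.9% of 27305 promoters of the same length. An ER half-site was found in 1 of the 13 windows, that of *BCOR*, against 12.1% of all promoters. These are counts of letters in a short window upstream of the start, and distal elements were not examined.

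TRPS1 itself was measured first, because the degron acts on its protein and leaves its gene in place. *TRPS1* (ENSG00000104447, chromosome 8, 115408496 to 115809673, minus strand) had 8750, 8040, 6340 and 6440 CPM (counts per 1000000, scaled by TMM) in DMSO replicates 1 to 4. With dTAG-13 it had 9300, 8720, 7620 and 7460 CPM. In all 4 pairs the dTAG-13 library had the higher value, while the groups overlapped because replicates 1 and 2 were high in both treatments. The log2 fold change was 0.17 (SE 0.05) with an adjusted p = 0.576 in edgeR's quasi-likelihood test. No change in its transcription was therefore called in Clone 39 in this fit. In the same fit and test *TRPS1* was called higher in Clone 28 (0.23, adjusted p = 0.0561) and not in Clone 35 (0.19, adjusted p = 0.388). In Clone 39 *TRPS1* was called higher with this clone's libraries fitted alone (log2 fold change 0.17, adjusted p = 0.0328 in the same test). It was also called there with no filter on low counts (0.16, adjusted p = 0.000299), and not under the other alternatives. PRO-seq does not measure the TRPS1 protein, and depletion in these libraries cannot be read from it.

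Luminal markers were transcribed throughout. All 11 luminal markers passed the filter, with *ESR1* at 1460 to 1790 CPM of the raw total, *PGR* at 1520 to 1960 and *GATA3* at 706 to 786 over the 8 libraries. Of the markers of other cell types, 3 of 5 basal, 2 of 5 mesenchymal, 1 of 3 immune and 1 of 2 endothelial passed it. The basal keratin genes *KRT5* and *KRT14* had at most 1 and 5 counts in any library, while the basal markers *TP63* and *ACTA2* had 6.07 to 9.37 and 7.7 to 13.6 CPM. Among immune markers *CD14* and *CD3E* had at most 3 and 4 counts and *PTPRC* 9 to 17, and among endothelial markers *CDH5* had at most 5 and *PECAM1* 3 to 11. The summed level of the 11 luminal markers ranged from 4930 to 5840 CPM in DMSO and from 5350 to 5650 with dTAG-13. For the 5 mesenchymal markers it was 19.7 to 23.5 and 17.7 to 22.7 CPM, and for the 5 basal markers 17.5 to 25.1 and 19.5 to 23.6 CPM. The 3 immune markers summed to 3.03 to 4.56 CPM in DMSO and 3.40 to 5.89 with dTAG-13, and the 2 endothelial markers to 1.16 to 2.21 and 1.78 to 4.03. None of these markers was called, and their part in the results was not tested.

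Total counts of the Clone 39 libraries ranged from 3226718 to 5293723. The mean log2 difference between dTAG-13 and DMSO libraries was -0.108. It did not pass an exact two-sided permutation test that leaves the pairs aside (p = 0.629, 4 libraries against 4, smallest possible p 0.0286). TMM factors were between 0.972 and 1.02, so scaling by composition was slight. Replicate libraries differed by 2.01 to 5.73 times the sampling noise (chi-square over its degrees of freedom), so none looked like a repeat deposit.

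*SCD* encodes stearoyl-CoA desaturase, which makes monounsaturated fatty acids. It lies on chromosome 10 from 100347233 to 100364826. Its level was 82.8, 93.4, 91.0 and 87.9 CPM in DMSO replicates 1 to 4 and 95.6, 120.0, 117.0 and 111.0 CPM with dTAG-13. Every dTAG-13 library lay above every DMSO library, and the rise was 1.25-fold (log2 fold change 0.32, SE 0.06, adjusted p = 0.00856, edgeR's quasi-likelihood test).

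*HMGCS1* encodes the cytosolic HMG-CoA synthase, which acts early in cholesterol synthesis. It lies on chromosome 5 from 43287470 to 43313512. Its level was 94.4, 93.4, 89.4 and 97.3 CPM in DMSO and 111.0, 136.0, 116.0 and 111.0 CPM with dTAG-13, again without overlap between the groups. The rise was 1.26-fold (log2 fold change 0.33, SE 0.07, adjusted p = 0.0895, edgeR's quasi-likelihood test). It was called in none of the 4 fits that left out a pair, where its adjusted p-values ran from 0.106 to 0.490.

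**Figure D1:**
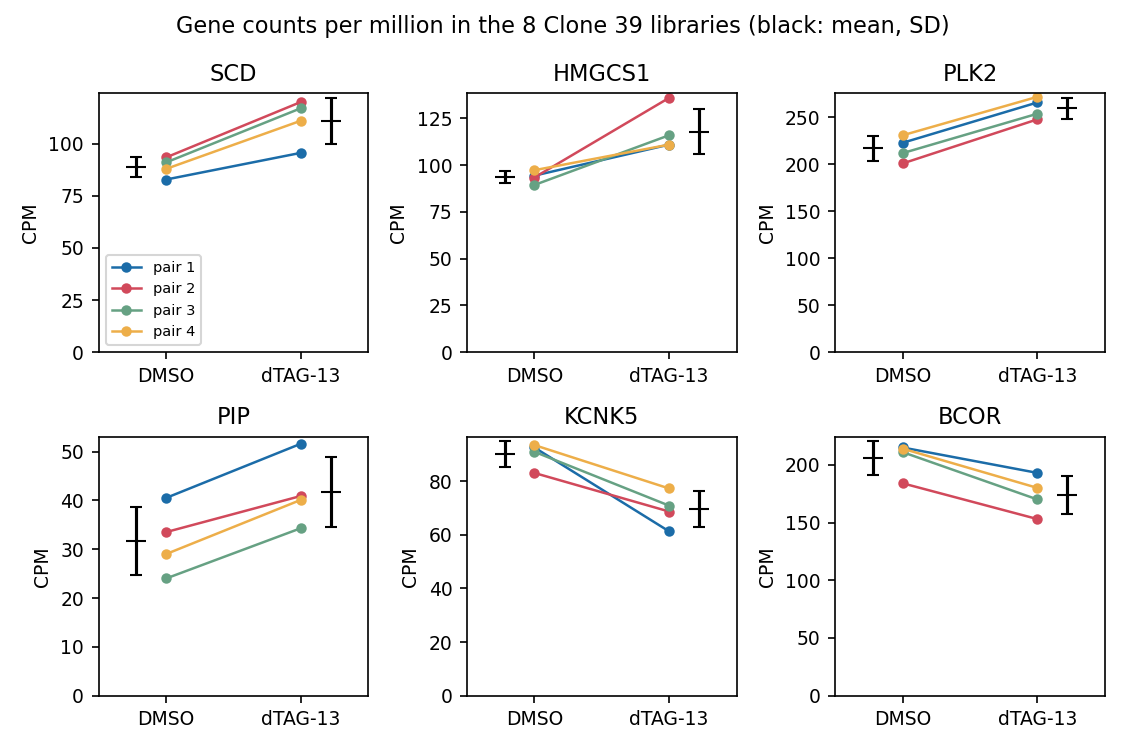
CPM (y axis from 0) of 6 genes in the 8 Clone 39 libraries, with lines joining the DMSO and dTAG-13 libraries of a pair and black bars for the mean and SD of 4 libraries. *SCD*, *HMGCS1*, *PLK2* and *PIP* were higher and *KCNK5* and *BCOR* lower with dTAG-13 in each of the 4 pairs, and for *PIP* the pairs differed more from each other than the treatments did.

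*PLK2*, a polo-like kinase gene, lies on chromosome 5 from 58453982 to 58460139. It had 223.0, 201.0, 212.0 and 231.0 CPM in DMSO and 266.0, 248.0, 254.0 and 272.0 CPM with dTAG-13. The groups did not overlap, and the log2 fold change was 0.26 (SE 0.04, adjusted p = 0.00503, edgeR's quasi-likelihood test). It stayed past the threshold in 3 of the 4 fits that left out a pair, and had an adjusted p of 0.108 without replicate 2.

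*PIP* encodes prolactin-induced protein, which is secreted by apocrine and luminal breast cells, and it lies on chromosome 7 from 143132077 to 143139739. It had 40.5, 33.5, 24 and 29.0 CPM in DMSO and 51.6, 40.9, 34.3 and 40.1 CPM with dTAG-13. Replicate 1 was high in both treatments and the groups overlapped, but each pair rose. Its log2 fold change of 0.40 (SE 0.07, adjusted p = 0.0134 in edgeR's quasi-likelihood test) was the largest among the 16 genes.

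*TM4SF18-AS1* (ENSG00000244468, chromosome 3, 149284782 to 149333653), a long noncoding RNA, had the smallest p-value. It had 234.0, 195.0, 158.0 and 163.0 CPM in DMSO and 283.0, 226.0, 198.0 and 208.0 CPM with dTAG-13. The groups overlapped while each pair rose, by 0.29 on the log2 scale (SE 0.04, adjusted p = 0.00111 in edgeR's quasi-likelihood test). It lies antisense to *TM4SF18* and *CPHL1P*, and the strand setting of the counting is not given in the sources used here, so reads of these genes may not be separated.

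*S100A10*, which encodes the annexin A2 partner p11, had 64.1, 59.2, 64.6 and 60.9 CPM in DMSO and 70.5, 79.8, 80.6 and 74.5 CPM with dTAG-13. The groups did not overlap (log2 fold change 0.29, SE 0.07, adjusted p = 0.0941, edgeR's quasi-likelihood test). *RBBP8* encodes CtIP, which starts resection of DNA breaks. It had 451.0, 374.0, 353.0 and 331.0 CPM in DMSO and 486.0, 436.0, 395.0 and 414.0 CPM with dTAG-13, so its groups overlapped (log2 fold change 0.20, adjusted p = 0.0759, the same test).

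*NEDD4L*, a HECT ubiquitin ligase gene, had 392.0, 340.0, 345.0 and 334.0 CPM in DMSO and 431.0, 397.0, 391.0 and 404.0 CPM with dTAG-13. *NUDT4*, a diphosphoinositol polyphosphate hydrolase gene, had 181.0, 158.0, 141.0 and 152.0 CPM in DMSO and 209.0, 181.0, 176.0 and 173.0 CPM with dTAG-13. In both genes 1 or more DMSO libraries reached into the dTAG-13 range, while all 4 pairs rose. Their log2 fold changes were 0.20 (adjusted p = 0.0256) and 0.23 (adjusted p = 0.0469) in edgeR's quasi-likelihood test.

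*STXBP5L*, a gene of the tomosyn family that acts on vesicle fusion, had 58.5, 57.1, 56.9 and 48.9 CPM in DMSO and 68.2, 72.3, 71.8 and 65.9 CPM with dTAG-13. The zinc finger gene *ZNF577* had 83.4, 68.2, 69.5 and 77.3 CPM in DMSO and 90.4, 96.0, 95.6 and 88.3 CPM with dTAG-13. Neither gene's groups overlapped, and the log2 fold changes were 0.33 (adjusted p = 0.0219) and 0.30 (adjusted p = 0.0264) in edgeR's quasi-likelihood test. *ZNF577* shares part of its span with *ZNF649* and other genes on its own strand, so reads of these genes may not be separated. The long noncoding RNA ENSG00000230623 (chromosome 1, 200333193 to 200478669) had 76.6, 72.6, 64.0 and 63.3 CPM in DMSO and 91.2, 82.4, 79.0 and 75.6 CPM with dTAG-13. Its groups overlapped, at a log2 fold change of 0.25 (adjusted p = 0.0941 from the same test).

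Of the 4 genes that fell, *KCNK5*, a two-pore-domain potassium channel gene (chromosome 6, 39188971 to 39229475), fell most. It had 92.6, 83.1, 91.0 and 93.5 CPM in DMSO and 61.3, 68.7, 70.9 and 77.3 CPM with dTAG-13. The groups did not overlap and the log2 fold change was -0.37 (SE 0.07, adjusted p = 0.0134, edgeR's quasi-likelihood test). The *BCOR* corepressor gene (chromosome X, 40049815 to 40177329) had 215.0, 184.0, 211.0 and 214.0 CPM in DMSO and 193.0, 153.0, 170.0 and 180.0 CPM with dTAG-13. Replicate 2 was low in both treatments, so the groups overlapped, and the log2 fold change was -0.25 (SE 0.05, adjusted p = 0.0134 from the same test).

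*BACE2*, which encodes an aspartyl protease, had 130.0, 135.0, 132.0 and 140.0 CPM in DMSO and 92.4, 116.0, 114.0 and 127.0 CPM with dTAG-13. The histone demethylase gene *KDM7A* had 119.0, 102.0, 92.4 and 95.5 CPM in DMSO and 91.7, 90.1, 81.2 and 77.7 CPM with dTAG-13. In both genes every dTAG-13 library lay below every DMSO library. Their log2 fold changes were -0.26 (adjusted p = 0.0463) and -0.27 (adjusted p = 0.0941) in edgeR's quasi-likelihood test.

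**Figure D2:**
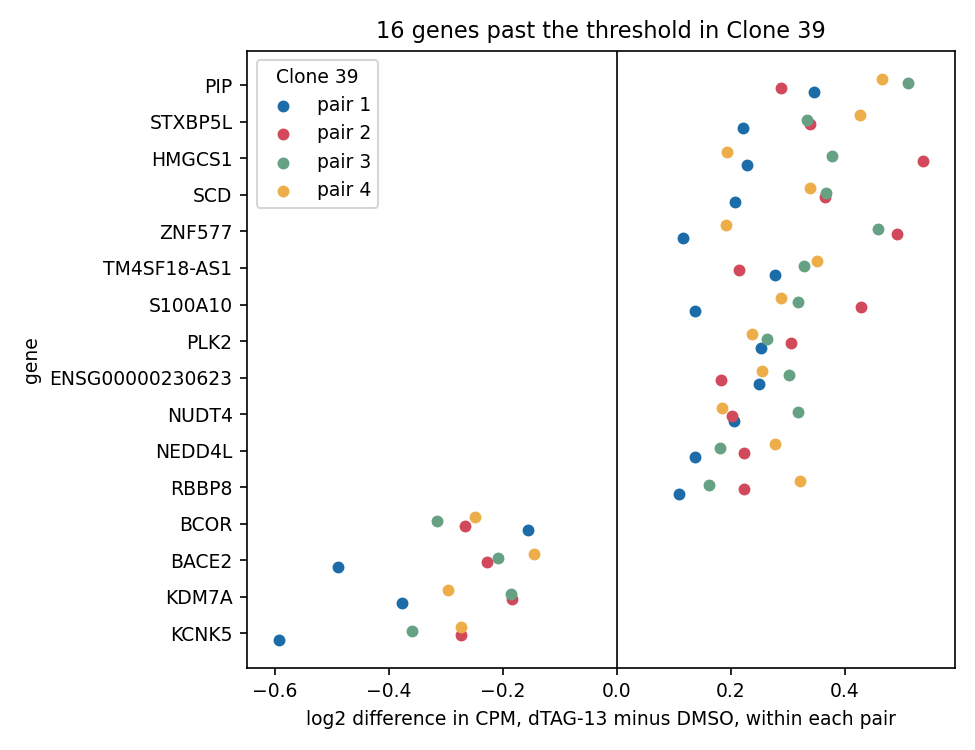
Within-pair log2 difference in CPM, dTAG-13 minus DMSO, for the 16 genes past the threshold in Clone 39 (y axis), with 1 point for each of the 4 pairs. All 12 genes that rose had 4 points above 0 and all 4 that fell had 4 points below 0; for *KCNK5*, *BACE2* and *KDM7A* pair 1 moved furthest.

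All 16 genes moved the same way in 4 of 4 pairs, where 6.57% of the genes tested were higher and 6.49% lower in every pair. In 9 of the 16 the 8 libraries split without overlap, against 1.12% of genes higher and 1.03% lower without overlap, a comparison that uses the same values as the test. The median difference over the 12 genes that rose was 0.214, 0.297, 0.324 and 0.283 on the log2 scale in pairs 1 to 4. Over the 4 genes that fell it was -0.433, -0.247, -0.262 and -0.261. Of the 16 genes, 14 were protein-coding and 2 long noncoding. Another annotated gene shared part of the span of 10 of them, so their reads may not be separated. That share was not worked out over all genes tested.

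Genes of cholesterol synthesis and uptake are switched on together by the SREBP2 transcription factor, encoded by *SREBF2*, when sterols are low. In Clone 39 all 25 tested genes of this list had a log2 fold change above 0, against 49.0% of all genes tested. Their median was 0.185 against -0.00295 over all genes tested. Of the 25 only *HMGCS1* passed the threshold and 0 were called lower, against 0.0537% of all genes called higher and 0.0179% lower. At an unadjusted p under 0.05, 13 of the 25 were higher and 0 lower, against 2.94% and 2.81% of all genes. Without the pair terms 7 of the 25 were higher at that level (1.74% of all genes) and with DESeq2 10 were (0.658% of all genes), with medians of 0.193 and 0.190.

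The members with the next smallest p-values were *FDFT1*, the squalene synthase gene, and *SC5D*, a sterol desaturase gene. *FDFT1* had 102.0, 99.1, 105.0 and 106.0 CPM in DMSO and 114.0, 118.0, 119.0 and 133.0 CPM with dTAG-13, a log2 fold change of 0.22 (SE 0.05, adjusted p = 0.115, edgeR's quasi-likelihood test). *SC5D* had 134.0, 123.0, 109.0 and 125.0 CPM in DMSO and 143.0, 157.0, 142.0 and 137.0 CPM with dTAG-13, a log2 fold change of 0.23 (adjusted p = 0.115 from the same test). Neither gene's groups overlapped and both just missed the threshold.

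Across the pathway, the log2 fold change was 0.21 for *SQLE*, the squalene epoxidase gene, and 0.25 for *LSS*, the lanosterol synthase gene. Neither passed the threshold. *SREBF2* itself had 0.06, and *CYP51A1* and *EBP*, both enzymes of the late pathway, had 0.04. The median over the 25 genes was 0.148, 0.211, 0.170 and 0.123 in pairs 1 to 4, so each pair had the same sign. In Clones 28 and 35 the medians were 0.119 and 0.069.

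**Figure D3:**
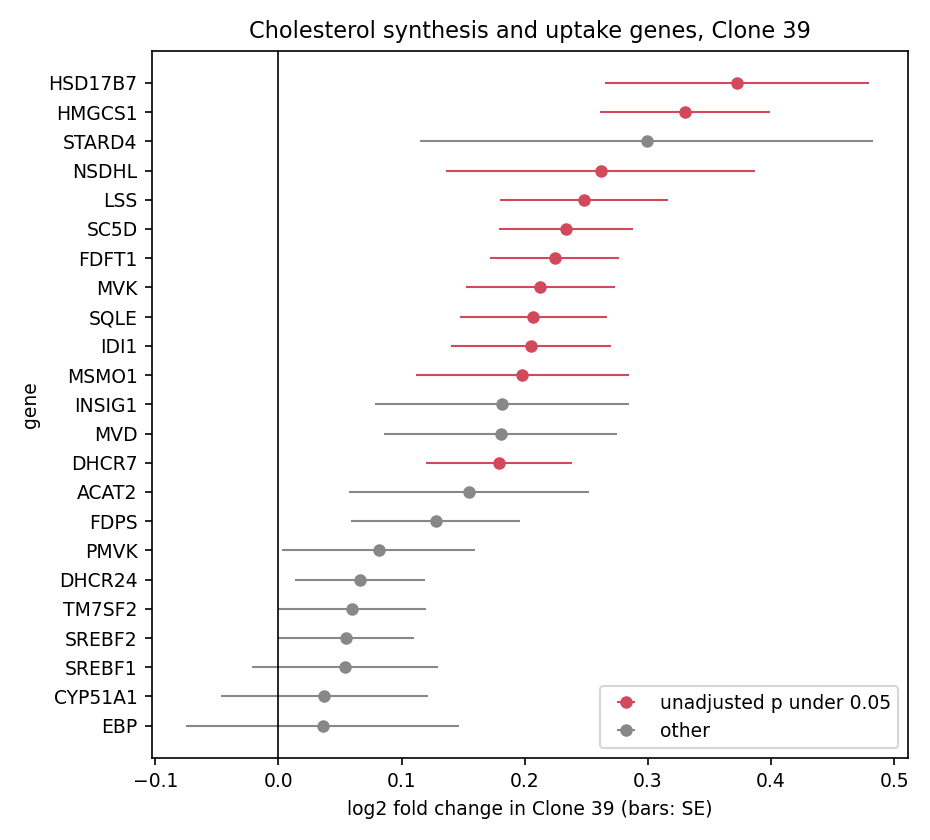
Log2 fold change in Clone 39 (x axis, bars are SE) of 23 of the 25 tested genes of cholesterol synthesis and uptake (y axis), in red where the unadjusted p was under 0.05. All 23 points lie above 0, 11 of them in red, and only *HMGCS1* passed the threshold on the adjusted p.

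RefSeq promoters were matched for 19 of the 25 genes. The sterol element letters were found in 1 of the 19 windows, that of *SREBF2*, and in 0.875% of all promoters. A GATA motif was found in 5 of the 19 (26.3%, near the 22.9% of all promoters), those of *CYP51A1*, *EBP*, *FDPS*, *HSD17B7* and *SREBF1*. An ER half-site was found in 0 of the 19, against 12.1% of all promoters.

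In the fatty acid synthesis list, *SCD* rose and the other 11 genes did not pass, where 0.0537% of all genes rose. The median log2 fold change of the list was 0.063 and 10 of 12 were above 0, against 49.0% of all genes. *FASN*, the fatty acid synthase gene, had 0.06, *ACLY* 0.06, *ACACA* 0.03 and *ACSS2* 0.17.

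The study sorted genes into gradual and transient responses in a time course of Clone 28, an experiment separate from these libraries that used 2 degrader molecules. Of 236 tested genes on the study's gradually activated list, 7 rose and 0 fell in Clone 39, against 0.0537% and 0.0179% of all genes. The median log2 fold change of the list was 0.096, and 200 genes (84.7%) were above 0, against 49.0% of all genes. The 7 were *PLK2*, *SCD*, *NEDD4L*, *ZNF577*, *RBBP8*, *HMGCS1* and *S100A10*. Of 217 on the gradually repressed list, 3 fell (*BCOR*, *KCNK5* and *KDM7A*) and 0 rose, against 0.0179% and 0.0537% of all genes. The median of this list was -0.075 with 172 genes (79.3%) below 0, against 51.0% of all genes. At an unadjusted p under 0.05, 32.6% of the gradually activated genes were higher and 19.8% of the gradually repressed genes lower, against 2.94% and 2.81% of all genes. As counts these were 77 and 43 genes, which became 39 and 25 without the pair terms (1.74% and 1.64% of all genes) and 43 and 18 with DESeq2 (0.658% and 0.466% of all genes). With a pair left out they were 57 to 88 and 32 to 54.

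Of 144 transiently activated genes 0 were called (against 0.0717% of all genes), with a median of 0.015. At an unadjusted p under 0.05, 20 (13.9%) were higher and 7 (4.86%) lower, against 2.94% and 2.81% of all genes. Of 478 transiently repressed genes 1 was called, *STXBP5L*, which rose and so went against its list. The median was -0.029, and by pair it was -0.088, -0.046, 0.004 and 0.023, so its sign differed between pairs. At the unadjusted level 44 (9.21%) were lower and 10 (2.09%) higher, against 2.81% and 2.94% of all genes. The 20 and 44 became 3 and 20 without the pair terms, where 1.74% of all genes were higher and 1.64% lower. With DESeq2 they became 4 and 4 (0.658% and 0.466% of all genes). With a pair left out they were 13 to 21 and 23 to 46, the lowest without replicate 3 and replicate 1. Of the 16 called genes, *PIP*, *TM4SF18-AS1*, *NUDT4*, *BACE2* and ENSG00000230623 were on none of the study's lists.

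**Figure D4:**
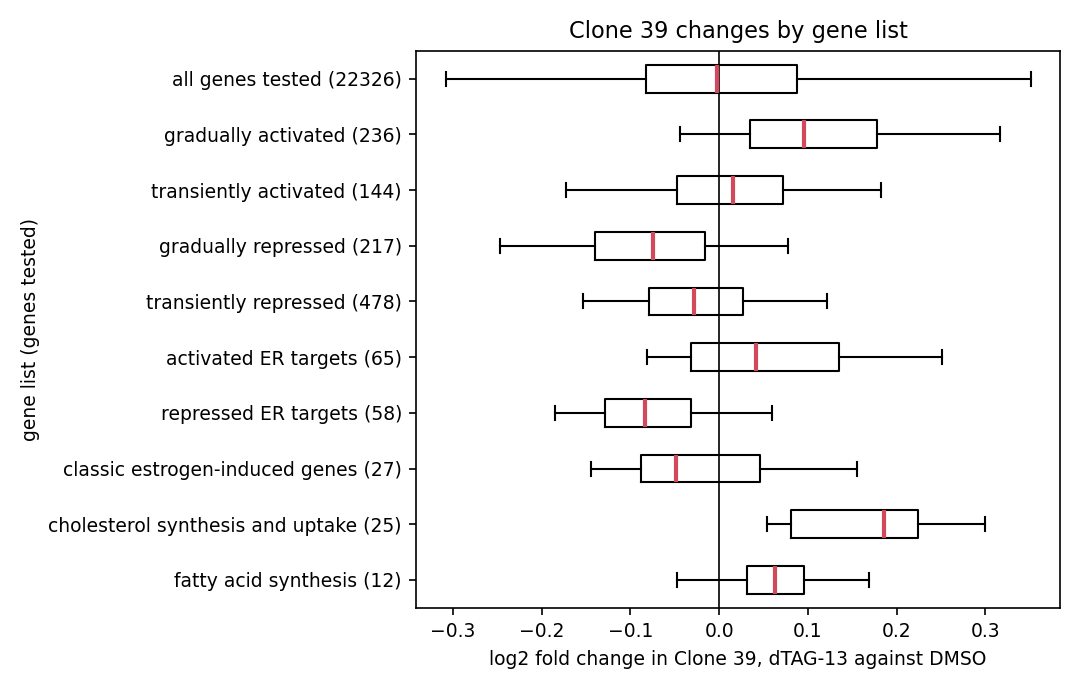
Log2 fold change in Clone 39 (x axis) of the genes of each list (y axis, number tested in brackets), as boxes from the lower to the upper quartile with the median in red and whiskers to the 5 and 95 percentiles. The median was 0.096 for gradually activated genes, -0.075 for gradually repressed genes, -0.084 for repressed ER targets and 0.185 for cholesterol genes.

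ER target genes were split by the study into those activated and those repressed in that Clone 28 time course. The paper also followed these targets in the PRO-seq experiment on its clones that is used here. It reports that they tended to change in the same direction in each clone. In Clone 39, 1 of 65 activated targets rose, *RBBP8*, and 0 fell, against 0.0537% and 0.0179% of all genes. The median log2 fold change was 0.042 with 41 above 0 (63.1%, against 49.0% of all genes). At an unadjusted p under 0.05, 17 genes were higher and 4 lower, which is 26.2% and 6.15% of the list against 2.94% and 2.81% of all genes. The 17 became 11 without replicate 3 or replicate 4, where 2.58% and 2.88% of all genes were higher. They became 5 without the pair terms (0 lower) and 6 with DESeq2, where 1.74% and 0.658% of all genes were higher. By pair the median was 0.010, 0.036, 0.043 and 0.095, so pair 1 was near 0. Of 58 repressed targets 1 fell, *KDM7A*, and 0 rose, against 0.0179% and 0.0537% of all genes. The median was -0.084 with 51 below 0 (87.9%, against 51.0% of all genes). By pair that median was -0.141, -0.100, -0.026 and -0.047. At an unadjusted p under 0.05, 19 of the 58 were lower (32.8%, against 2.81% of all genes) and 1, *FDFT1*, higher. The 19 became 7 without replicate 1 and 13 without replicate 2, where 2.48% and 2.41% of all genes were lower. They became 12 without the pair terms and 3 with DESeq2, where 1.64% and 0.466% of all genes were lower.

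Among activated targets, *FRS2*, a fibroblast growth factor receptor adaptor gene, had 451.0, 408.0, 347.0 and 353.0 CPM in DMSO and 473.0, 452.0, 431.0 and 408.0 CPM with dTAG-13. The groups overlapped, each pair was higher, and the adjusted p was 0.142 in edgeR's quasi-likelihood test. *RESF1*, which encodes a silencing factor of retroelements, had a log2 fold change of 0.24 (adjusted p = 0.222 from the same test). The long noncoding RNA gene *FLJ12825*, on the activated list of the time course, had lower values with dTAG-13 in these libraries. It had 176.0, 170.0, 130.0 and 131.0 CPM in DMSO and 139.0, 140.0, 124.0 and 127.0 CPM with dTAG-13. It was lower in 4 of 4 pairs with overlapping groups (log2 fold change -0.19, adjusted p = 0.410), and in Clone 28 it was called lower (-0.35). Among repressed targets, the taurine transporter gene *SLC6A6* had 182.0, 171.0, 163.0 and 174.0 CPM in DMSO and 159.0, 148.0, 151.0 and 148.0 CPM with dTAG-13. Its groups did not overlap, but its adjusted p was 0.228 from the same test. The galactosyltransferase gene *B4GALT1* had a log2 fold change of -0.18 (adjusted p = 0.411).

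ER and its best known targets did not pass. The log2 fold change was 0.08 for *ESR1*, 0.04 for *PGR*, -0.04 for *GREB1*, 0.05 for *MYC* and -0.27 for *TFF1*, with adjusted p-values from 0.900 to 0.991 in edgeR's quasi-likelihood test. The luminal factors *GATA3* and *FOXA1* had -0.01 and -0.09. Of 27 classic estrogen-induced genes 0 were called and the median was -0.049. *HSPB8* had 0.15, *GNG11* 0.34, *PHACTR1* 0.13, *CBFA2T3* -0.14 and *CXCL12* -0.17, and none of these 5 passed.

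A further 34 lists covered cell cycle, stress, signalling, chromatin and housekeeping functions and cell type markers. Their only call was *ZNF577* among 229 zinc finger genes of chromosome 19, where 0.0717% of all genes tested were called. The heat shock list (19 genes, median 0.041), immediate early genes (21, median 0.034), interferon response (19, median 0.100), translation factors (34, median -0.008) and 82 ribosomal protein genes (median -0.013) had 0 calls each. The cereblon ligase machinery and known cereblon neosubstrates (11 genes) also had 0, with a median of -0.043. RUNX and ETO factors had a median of -0.086 over 6 genes, all below 0 (against 51.0% of all genes), with 0 called. The 13 protein-coding genes of the mitochondrial genome had a median of 0.138 with 0 called, against -0.133 in Clone 28 and 0.135 in Clone 35.

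Next in order of p-value came genes that missed the threshold, with adjusted p-values from 0.113 to 0.313 in edgeR's quasi-likelihood test. Of those higher in every pair, *EHF* had a log2 fold change of 0.17, *NDUFB4* 0.39, *C12orf42* 0.97, *LURAP1L-AS1* 0.35, *LINC02385* 0.46, *ARHGAP15* 0.20 and *FAM107B* 0.24. The level of *C12orf42* was low, at 2.57 to 4.09 CPM in DMSO and 5.66 to 6.87 CPM with dTAG-13. Its log2 fold change was 0.10 in Clone 28 and 0.06 in Clone 35. Of those lower in every pair, *GSE1* had -0.14, *CACNG4* -0.24, *ADIRF* -0.27, *SRCIN1* -0.26, *SASH1* -0.22, *ABCC12* -0.19, *ATP10A* -0.23 and *ITPK1* -0.17. The adjusted p of *GSE1*, a corepressor-associated gene, was 0.113, the smallest among genes not called, and that of *ITPK1* was 0.313.

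In Clones 28 and 35, fitted with their own pairs in the same model, the 16 genes had the same sign in 16 of 16 cases each. Of the 16, 9 also passed in Clone 28, where 1.18% of all genes did, and 6 in Clone 35, where 0.0941% did. The same 6 passed in all 3 clones, namely *TM4SF18-AS1*, *PIP*, *BCOR*, *NUDT4*, *RBBP8* and ENSG00000230623. Over all genes tested, 30.4% had 1 sign in all 3 clones.

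The remaining 7 passed in Clone 39 and in neither other clone. *SCD* had a log2 fold change of 0.32 in Clone 39, 0.06 in Clone 28 and 0.21 in Clone 35. *S100A10* had 0.29, 0.06 and 0.14, and *BACE2* had -0.26, -0.17 and -0.03. The other 4 were *HMGCS1*, *KCNK5*, *STXBP5L* and *KDM7A*. When the change in Clone 39 was tested against the mean change of the other clones, 0 genes passed in edgeR's quasi-likelihood test (979 at an unadjusted p under 0.05; DESeq2 also called 0, with 122 at that level). For *SCD* the unadjusted p of that difference was 0.0082 and the adjusted p 1.00, so none of the 16 was shown to differ between clones.

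The 3 genes with the smallest p for that difference were *SNHG4*, *SNORA36A* and *DIPK1A*. *SNHG4*, a small nucleolar RNA host gene, had a log2 fold change of -0.22 in Clone 39, 0.07 in Clone 28 and 0.11 in Clone 35. *DIPK1A* had -0.52, 0.43 and 0.22 at 3.49 to 10.4 CPM in Clone 39. All 3 share their span with other genes, and none passed the threshold.

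**Figure D5:**
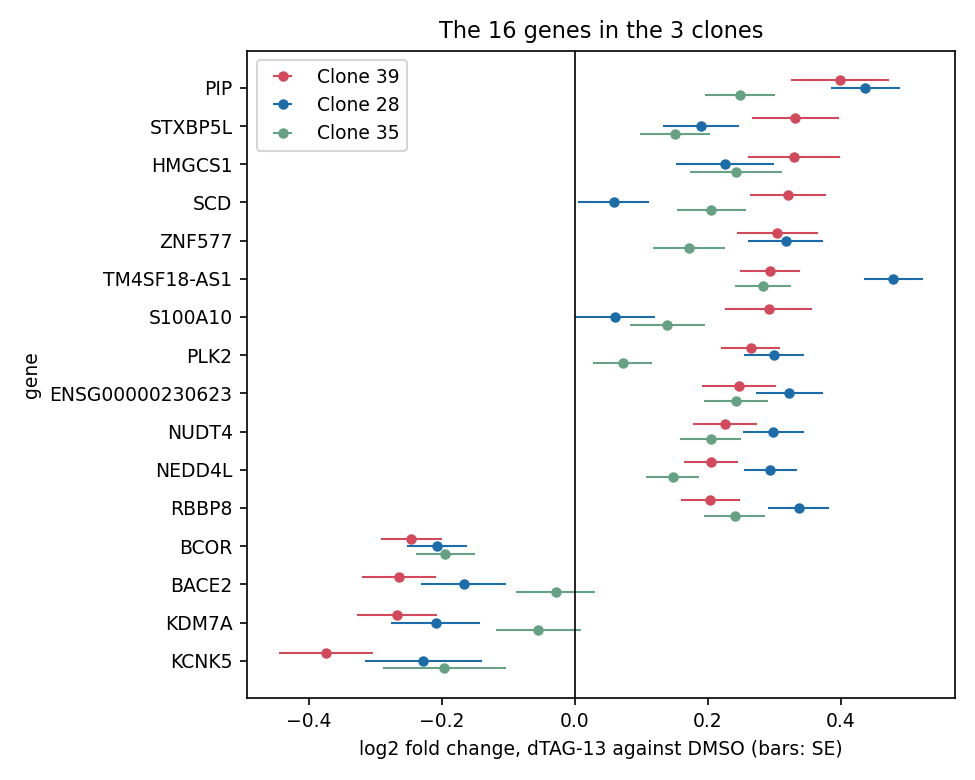
Log2 fold change with dTAG-13 (x axis, bars are SE) of the 16 genes called in Clone 39 (y axis), in Clone 39 (red), Clone 28 (blue) and Clone 35 (green), each with 4 pairs. All points lie on the side of 0 that the gene has in Clone 39, and the point of *SCD* is 0.32 in Clone 39 and 0.06 in Clone 28.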

How the data were processed

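PRO-seq counts were analysed for the 8 libraries of Clone 39, with the 16 of Clones 28 and 35 in the same fit. Per the paper's methods and the submitters' processing notes (cutadapt 1.8.1, Bowtie2 2.4.4, SAMtools 1.9, hg38), the authors trimmed adapters, removed duplicates by molecular identifiers, removed ribosomal reads, aligned the rest and counted reads in genes. The deposited values are raw counts per gene and library, not normalized. The annotation and strand setting of the counting are not given in the sources used here. Names and coordinates come from GENCODE release 44 on hg38 (60463 of 60605 identifiers), and promoters from RefSeq on GRCh38.p14.

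In R 4.3.3, edgeR 4.0.16 was run with filterByExpr (minimum count 10, 22326 genes), TMM and robust quasi-likelihood, with 12 pair terms and 3 treatment terms (9 residual degrees of freedom). Standard errors are the log2 fold change over the root of F. Adjusted p-values are Benjamini-Hochberg over all genes tested, with a threshold of 0.1. CPM were scaled by TMM, and pair differences used a prior count of 2. The pairing comes from the labels. Same-numbered Clone 39 libraries deviated together with correlations of 0.0926 to 0.229 across genes, and 3 of 4 matched their own number best.

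Members and lists were chosen with earlier results of these data known. The genes named are *TRPS1*, every gene called in Clone 39, up to 2 members per list (4 for ER targets) with the smallest p and 4 of 4 pairs in 1 direction, 12 genes known from the study or ER biology, the 3 with the smallest p for a clone difference, and up to 10 per direction that missed the threshold; other members of the lipid lists were added after their values were seen. The alternatives were RLE factors, library totals, no filter, every library at 10 counts or more, DESeq2 1.42.0, no pair terms, a threshold of 0.05, each pair left out, and Clone 39 alone; their use on the gene lists was added after seeing the data. Libraries held 3226718 to 5293723 counts, and the parts of replicate spread and counting error in the precision of single genes were not separated. Results for 2 genes of the cholesterol list are not reported here one by one.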

Additional observations from a re-analysis of the deposited data

Results flagged for a closer look

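In Clone 39 DMSO, 1 library of *STXBP5L* stood apart from the other 3 (gap over range 0.852, replicate 4 at 48.9 CPM), as did 1 library of *BCOR* (0.901, replicate 2 at 184.0 CPM). Over 42 groups tested, chance flags about 1 in 20, or 2.1.

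Tested against Clone 28 alone, a comparison chosen after seeing the data, the change of 2 small nucleolar RNAs differed in edgeR's quasi-likelihood test. *SNORA36A*, within *DKC1*, had a log2 fold change of 1.11 in Clone 39 and -1.29 in Clone 28 (adjusted p of the difference 0.0672). *SNORA14B*, within *TOMM20*, had 0.14 and -1.78 (adjusted p 0.0672). In Clone 39 *SNORA36A* had 3.19, 1.03, 1.91 and 0.20 CPM in DMSO and 4.98, 2.83, 2.81 and 2.43 CPM with dTAG-13. Against Clone 35 alone 0 genes passed.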

How the results depend on the processing

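The number of genes called in Clone 39 (16, with 12 higher and 4 lower) was 49 (31 and 18) with no filter on low counts, 0 with DESeq2 and 0 without the replicate block, and 2 to 15 (2 to 13 and 0 to 4) when a pair was left out. It was 11 to 23 under the other 5 alternatives. DESeq2 with the same terms had its lowest adjusted p at 0.434, and the cause of these differences was not tested. The 16 genes kept their direction in all 192 comparisons with an alternative and passed in 106. For the difference between clones, calls were 0 in the main comparison, 7 with no filter, 0 to 1 when a pair was left out, and 2 against Clone 28 alone. The median of the cholesterol genes was 0.173 to 0.193 with a pair left out. With a pair left out, the log2 fold changes of *GREB1* (-0.085 to 0.0024), *MYC* (-0.015 to 0.12), *EBP* (-0.076 to 0.14) and *GATA3* (-0.039 to 0.013), none of them called, changed sign. The log2 difference of total counts was -0.175 to -0.0281 with a pair left out, and an exact sign-flip test of the 4 pairs gave p = 0.375. With 4 pairs that test cannot give a p under 0.05, so it cannot decide whether totals differed. Over all genes tested the median SE of a log2 fold change in Clone 39 was 0.12.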
